A study of Mus musculus with 16 samples.

Results

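The comparison described here is the effect of bourgeonal on the gate ratio, that is, on how each RNA divides between the gates of a cell sort. It uses 16 of the 16 libraries of the series. Within each of 8 pools of mice, the log2 level in the library titled GFP+ was subtracted from that in the library titled GFP-, and the 4 odor pool differences were set against the 4 vehicle pool differences. A positive gate ratio means more RNA in the library titled GFP-, and a positive difference means that the ratio was higher with odor.

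All mice were C57BL/6 and carried the S100a5-tauGFP reporter, in which GFP is joined to the microtubule protein tau and follows the S100a5 gene. The 24 animals, of both sexes and 7 to 12 weeks old, were kept singly in clean air chambers for 40 h with an air flow of 3.1 L/min. The odor group received bourgeonal, an aldehyde with a lily of the valley scent, and the vehicle group received filtered air, each in 10 s pulses every 20 min after the first 26 h. Olfactory mucosa was dissociated and sorted for GFP, and 50 to 100 ng of RNA per library was labelled for Clariom S arrays. The titles give 3 mice per library, so each value is that of a pool, and the dose of odorant is not given in the sources used here. Nothing more is said about how the pools were formed, so p-values measure the spread between these pools.

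The labels contradict each other on the gate: in each of the 16 libraries the cell type entry gives the gate opposite to that in the title. Titles define the groups here, and every direction is that of the library as titled. S100a5, the calcium-binding protein gene whose activity the reporter follows, was higher on the titled GFP- side of every pool, with vehicle gate ratios of 0.85, 0.65, 1.17 and 1.14 and odor gate ratios of 1.07, 1.00, 0.85 and 1.46. The treatments overlapped, and the odor minus vehicle difference was 0.14 (95% interval -0.31 to 0.59; exact permutation p = 0.514). The side with more S100a5 RNA was therefore the same in both treatments, and it is the side opposite to the one the titles name.

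Each mature olfactory sensory neuron expresses a single odorant receptor gene out of a very large family. S100a5 is transcribed more in sensory neurons that have been active, so a sort on its reporter is meant to part recently active neurons from quiet ones. An odorant that activates the neurons of a given receptor would then move the RNA of that receptor from one gate to the other. In bulk RNA, fewer neurons that express a receptor and less receptor RNA per neuron cannot be told apart.

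Of 19505 named genes, 1091 were odorant receptors (symbols that begin with Olfr), and 998 of them had at least 1 of the 4 group means above background. Background is the highest 95th percentile of the vomeronasal receptor genes over the libraries, a log2 level of 4.97. It serves as a guide because those genes belong to another organ. Near it, ratios are compressed. Arrays have no read depth, and the number of pools limits the precision. Omp, the marker protein of mature sensory neurons, lay between 18.63 and 18.97 in every library, near the top of the scale, where its gate ratio may be compressed. Vehicle pool 3 stood apart in both gates in the levels of the heat shock genes Hspa1a and Hspa1b, which are given with their list.

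Bourgeonal moved no gene past the threshold over all 19505 genes (limma, Benjamini-Hochberg adjusted p under 0.05; 0 genes, 0.00%), and the smallest adjusted p was 0.172. At an unadjusted p under 0.05, 545 genes (2.79%) had a higher and 564 (2.89%) a lower gate ratio with odor. This even split depends on the scaling and on the genes kept. With each pool's ratios centred on its receptor median, 185 of the 19505 genes were higher and 864 lower. That centring moved the median difference of all genes from 0.02 to -0.09. With dim genes left out, 464 of the 12131 genes kept were higher and 328 lower. The largest difference on the array was that of Olfr16, at 4.57 on the log2 scale. Olfr1099 followed at 2.34. Outside the odorant receptors the differences ran from -1.49 to 1.26.

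Olfr16, also named MOR23, is a receptor known for its response to lyral, an odorant of the lily of the valley type. In vehicle pools its gate ratio was -1.50, -0.39, -0.60 and -3.72, with a mean of -1.55 ± 1.52 (SD, n = 4 pools). In odor pools it was 1.32, 3.63, 3.88 and 3.22, with a mean of 3.01 ± 1.16 (SD, n = 4 pools). All vehicle pools were on the titled GFP+ side and all odor pools on the titled GFP- side, with no overlap. The difference of 4.57 ± 0.75 (SE; 95% interval 2.90 to 6.23) is a 23.7-fold change of the ratio. Its limma p was 0.000109 and its adjusted p 0.467. The exact two-sided permutation p was 0.0286, the smallest that 70 assignments of the pools allow. With odor and vehicle pools paired by number, as the receptors' values were taken to be, Olfr16 was higher with odor in 4 of 4 pairs, and the exact sign-flip p was 0.125, the smallest that 16 flips allow. Olfr16 and Olfr1099 were singled out with results of these data known, so these p-values are not independent evidence.

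The level of Olfr16 differed on both sides of the sort. In the libraries titled GFP- it was 8.94, 10.34, 10.12 and 7.11 in vehicle pools and 11.44, 12.06, 11.86 and 11.55 in odor pools. All odor libraries were above all vehicle libraries there. In the libraries titled GFP+ it was 10.44, 10.73, 10.72 and 10.84 in vehicle pools and 10.11, 8.43, 7.98 and 8.33 in odor pools. All odor libraries were below all vehicle libraries there. The group mean was higher by 2.60 in the titled GFP- gate and differed by -1.97 in the titled GFP+ gate. The mean over both gates was 9.91 ± 0.73 (SD, n = 4 pools) with vehicle and 10.22 ± 0.40 with odor, a gap smaller than the spread with vehicle. Among the 1091 receptors, ordered from the highest gate ratio down, Olfr16 stood at rank 877 with vehicle (717 to 1001 in single pools) and at rank 72 with odor (37 to 303). Vehicle pool 4 (-3.72) and odor pool 1 (1.32) were the lowest of their treatments, and without 1 pool at a time the difference lay between 3.84 and 5.13.

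Olfr1099 had a positive gate ratio with and without odor. It was 3.08, 3.34, 3.04 and 4.30 in vehicle pools (mean 3.44 ± 0.59, SD, n = 4) and 5.14, 6.02, 5.44 and 6.50 in odor pools (5.78 ± 0.61). The lowest odor pool was above the highest vehicle pool. The difference was 2.34 ± 0.36 (SE; 95% interval 1.54 to 3.13), a 5.05-fold change of the ratio. Its limma p was 5.9e-05, its adjusted p 0.384 and its exact permutation p 0.0286, again the smallest possible, with a paired sign-flip p of 0.125, the smallest for 4 pairs. Leaving out 1 pool at a time gave 2.09 to 2.62.

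Unlike those of Olfr16, the levels of Olfr1099 differed mainly in 1 gate. In the libraries titled GFP- it was 12.93, 13.19, 12.82 and 13.35 with vehicle and 12.75, 12.93, 12.93 and 12.83 with odor, and the treatments overlapped. In those titled GFP+ it was 9.85, 9.85, 9.78 and 9.05 with vehicle and 7.61, 6.91, 7.49 and 6.33 with odor, with no overlap. The group means differed by -0.21 in the titled GFP- gate and by -2.55 in the titled GFP+ gate. The mean over both gates was 11.35 ± 0.14 with vehicle and 9.97 ± 0.29 with odor (SD, n = 4 pools each). Its gate ratio ranked at 31 of 1091 with vehicle (14 to 79 in single pools) and at 2 with odor (2 to 8). The difference between the genes in how the gates took part was not tested.

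**Figure D1:**
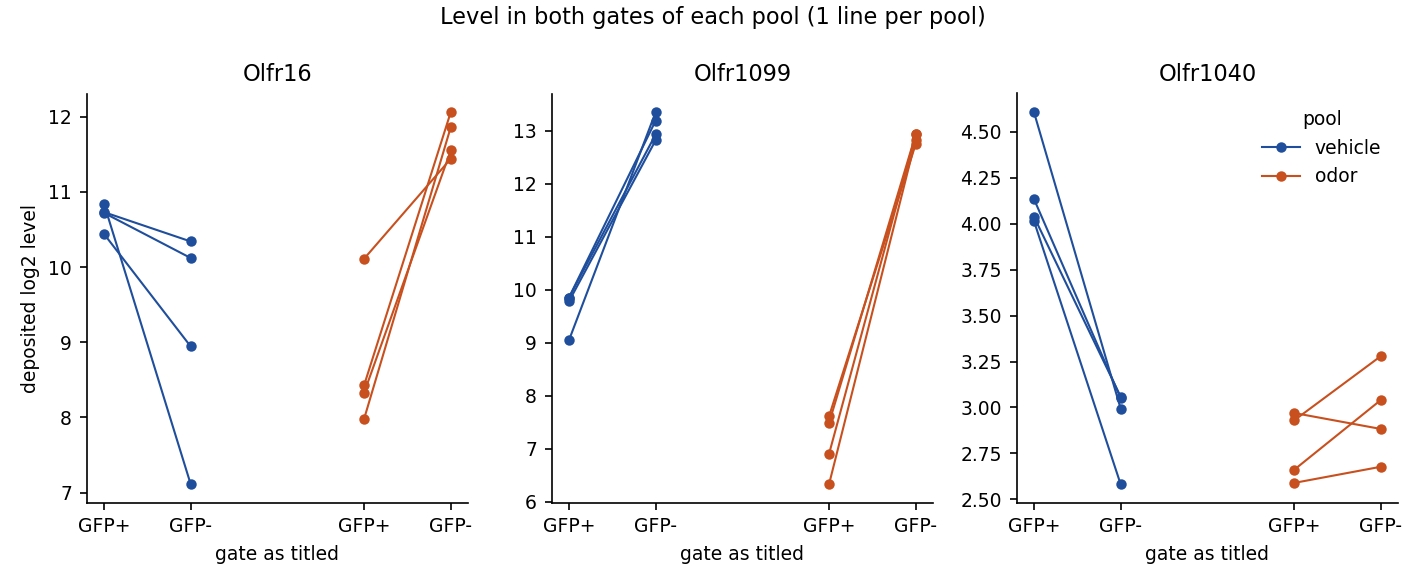
Deposited log2 level (vertical axis) of Olfr16, Olfr1099 and Olfr1040 in the libraries titled GFP+ and titled GFP- (horizontal axis), with 1 line per pool, blue for vehicle and orange for odor. For Olfr16 the lines run down from GFP+ to GFP- in all 4 vehicle pools and up in all 4 odor pools; for Olfr1099 all 8 run up, from 9.05 to 9.85 with vehicle and from 6.33 to 7.61 with odor in the titled GFP+ gate.

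Olfr1040 had the smallest unadjusted p of the receptors, but its signal was dim. It was named with results of these data known, so its p-values are not independent evidence. Its permutation and sign-flip p-values, 0.0286 and 0.125, are the smallest that those tests allow. Its gate ratio was -0.98, -1.43, -1.61 and -1.08 in vehicle pools and 0.09, -0.09, 0.35 and 0.38 in odor pools, without overlap. The difference was 1.46 ± 0.20 (SE; 95% interval 1.01 to 1.91; exact permutation p = 0.0286, and 0.125 by paired sign flips; limma adjusted p = 0.269). None of its 4 group means was above background: they lay between 2.79 and 4.20.

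Probes of one receptor can also bind a close relative, so the sequence nearest to Olfr1099 among receptors with a usable record is shown. The first 50 coding bases are given from RefSeq (GRCm38.p6, minus strand), and capitals mark bases that differ from Olfr1099. Olfr1099 itself lies on chromosome 2 from 86958518 to 86959456, and the printed bases at chr2:86959407-86959456. Those of Olfr1100 are at chr2:86978745-86978794 and those of Olfr1098 at chr2:86923481-86923530.
Olfr1099: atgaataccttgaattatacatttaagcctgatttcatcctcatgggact
Olfr1100: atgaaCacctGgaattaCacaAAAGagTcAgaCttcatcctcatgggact
Olfr1098: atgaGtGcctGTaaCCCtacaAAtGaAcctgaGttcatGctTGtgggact
Olfr1100 matched Olfr1099 at 40 of 50 bases and Olfr1098 at 35 of 50. This stretch is only the start of each gene and need not hold the array's probes.

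The relatives and neighbours of Olfr1099 differed less than it did. The gate ratio of Olfr1100, 18.4 kb away, was 1.57, 2.62, 2.88 and 3.17 in vehicle pools and 2.89, 3.10, 3.11 and 3.20 in odor pools. These overlap, and the difference was 0.51 ± 0.31 (SE). In the titled GFP+ gate, however, its level was 7.091 to 8.275 with vehicle and 6.21 to 6.935 with odor, without overlap. Its group means differed by -1.015 in that gate and by -0.499 in the titled GFP- gate. These are the gate and direction in which Olfr1099 mainly differed. The titled GFP+ levels of Olfr1100 were not tested by themselves. The share of all genes without overlap in that gate is not given here. Whether probes of the 2 genes bind each other's RNA was not tested. Olfr1101, 28.8 kb away, differed by 0.30, Olfr1098 on the other side (35.0 kb) by -0.16 and Olfr1097 (66.4 kb) by 0.08. Olfr169, which shares 34 of the 50 bases, differed by 0.04. None of these neighbours separated odor from vehicle pools by the gate ratio, and whether Olfr1099 differs from them was not tested.

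Olfr16 lies on chromosome 1 from 172956768 to 172957817 on the plus strand. Its nearest measured receptors on that side, Olfr1408 at 172 kb and Olfr1406 at 226 kb, differed by -0.33 and -0.23. On the other side the nearest ones, Olfr12 and Olfr1410, are about 80300 kb away and differed by 0.42 and -0.11. The neighbours of Olfr1040 on chromosome 2 had negative differences: -1.34 for Olfr1039 (14.1 kb), -1.15 for Olfr1042 (12.6 kb), -0.90 for Olfr1043 (15.3 kb) and -0.53 for Olfr1037 (59.9 kb). None of these 8 neighbours separated the treatments either.

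Because Olfr16 had the largest difference, the 250 bases before its annotated start are shown (RefSeq GRCm38.p6, plus strand, chr1:172956518-172956767). Capitals mark TAATGA or its reverse complement TCATTA, searched on both strands as a homeodomain-type motif of the kind described in odorant receptor promoters.
Olfr16: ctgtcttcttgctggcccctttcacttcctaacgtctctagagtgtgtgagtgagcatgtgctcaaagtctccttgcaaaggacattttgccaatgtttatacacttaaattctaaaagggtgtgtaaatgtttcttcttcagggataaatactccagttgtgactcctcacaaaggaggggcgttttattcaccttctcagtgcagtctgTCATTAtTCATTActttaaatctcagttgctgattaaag
The window holds 2 matches. Of 288 receptors whose annotated start lies away from the coding start, 87 (30.2%) hold the motif in this window, against 8.59% of all 32851 windows. The other 637 of the 925 receptors with a window were left out, since their annotated start is the coding start. A match is a description of letters, not a site.

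Across the receptor family, the gate ratio was nearly the same with and without odor. The mean ratios of the treatments correlated at r = 0.982 over 1091 receptors. These are not independent points, since they share libraries. A positive mean gate ratio was held by 606 receptors with vehicle and by 644 with odor. The sign went from negative to positive for 63 and the other way for 25. Only Olfr16 among the receptors (0.0917%) was negative in all 4 vehicle pools and positive in all 4 odor pools, a pattern met by 48 of all genes (0.246%).

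**Figure D2:**
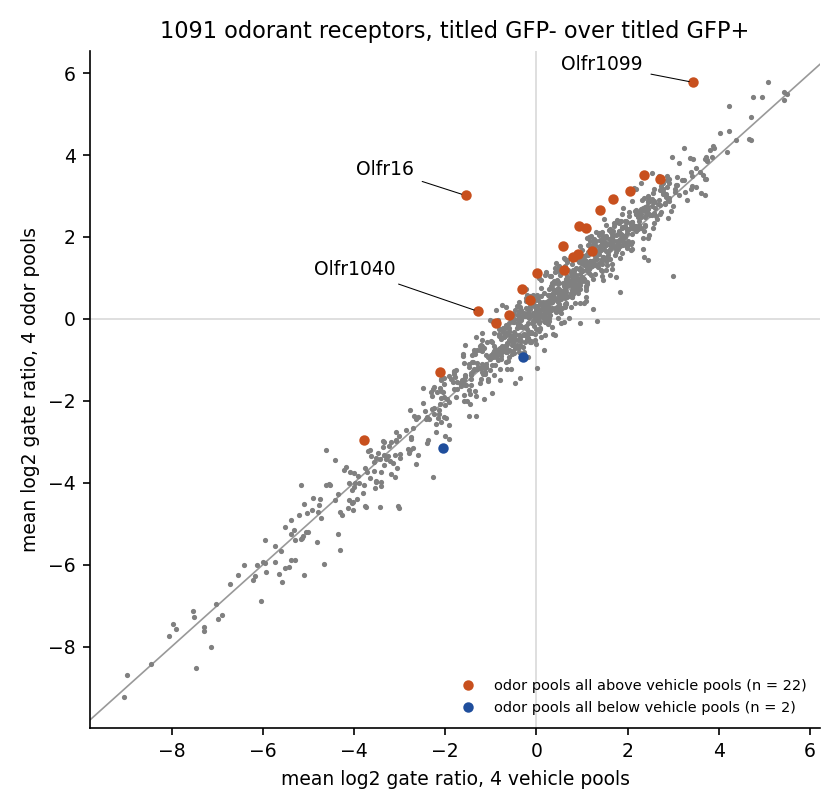
Mean log2 gate ratio in 4 odor pools (vertical axis) against that in 4 vehicle pools (horizontal axis) for 1091 odorant receptors, with the line of equality. Orange points are the 22 receptors with all odor pools above all vehicle pools and blue points the 2 with the reverse; Olfr16, at -1.55 and 3.01, is the point farthest from the line.

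The typical receptor differed little between the treatments. The median difference was 0.13 for receptors (quartiles -0.13 and 0.39; 700 positive, 64.2%) and 0.02 for the 18414 other named genes (52.4% positive). By pool, the receptors' median gate ratio was 0.24, 0.31, 0.42 and 0.42 with odor and -0.01, 0.36, 0.40 and 0.20 with vehicle. The treatments overlapped: 0.35 ± 0.089 (SD, n = 4 pools) with odor and 0.24 ± 0.19 with vehicle. Without vehicle pool 1, whose median was the lowest, the median difference was 0.06. Receptors also varied more between pools, with a median SD within treatments of 0.62 against 0.34 for other genes.

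Receptors with large differences were found on both sides. A difference above 1 was found in 19 receptors (1.74%), against 0.190% of all genes, and one below -1 in 20 receptors (1.83%), against 0.313% of all genes. The most negative was Olfr323 at -1.96. The share of receptors with a positive difference, 64.2%, depends on the scaling and the pools. It was 52.2% with pool differences centred on the receptor median and 55.8% without vehicle pool 1. At an unadjusted p under 0.05, 59 receptors (5.41%) were higher and 20 (1.83%) lower, against 2.79% and 2.89% of all genes. With the replicate number as a block these counts were 116 and 46, and over all genes 604 (3.10%) and 653 (3.35%). The number was taken as paired for receptors only. In that fit 0 genes passed over all genes, with an adjusted p of 0.339 for Olfr16 and 0.0532 for Olfr1099. The 15 trace amine receptors, another receptor family of the olfactory epithelium, had a median difference of 0.02, and 0 of them had an unadjusted p under 0.05.

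**Figure D3:**
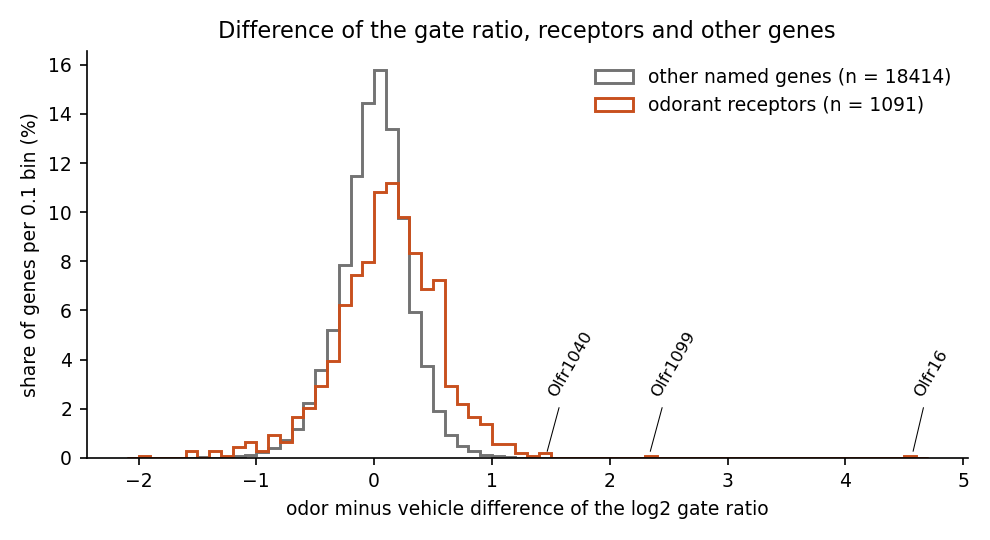
Share of genes (vertical axis, percent per 0.1 bin) by the odor minus vehicle difference of the log2 gate ratio (horizontal axis), for 1091 odorant receptors in orange and 18414 other named genes in grey. The receptors' curve is the wider, from -1.96 to 4.57 against -1.49 to 1.26, and Olfr16 lies alone at its right end.

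In 22 receptors (2.02%) all 4 odor pools lay above all 4 vehicle pools, against 368 (1.89%) of all genes, so the share was close to that over all genes. In 2 receptors (0.183%), Olfr1020 (-0.63) and Olfr1279 (-1.11), all odor pools lay below, against 313 (1.60%) of all genes. This split of 22 against 2 depends on the scaling. With each pool's ratios centred on its receptor median it was 13 against 9, beside 108 (0.554%) higher and 492 (2.52%) lower of all genes. The differences of the 22 ran from 0.44 (Olfr980) to 4.57, with a median of 1.06. Of the 22, 14 had a positive mean gate ratio in both treatments, 3 a negative one in both (Olfr948, Olfr1391 and Olfr885), and 5 went from negative to positive: Olfr16, Olfr1040, Olfr1453, Olfr669 and Olfr1136. Of the 22, 19 had a group mean above background; Olfr1040, Olfr1453 and Olfr1136 did not. In 20 of the 22 the level was higher with odor in the titled GFP- gate, in 20 it was lower in the titled GFP+ gate, and in 18 both held. These gate directions follow in part from the choice of the 22 and have no test. With fewer pools fewer overlaps are possible: 28 to 55 receptors were higher without overlap when 1 pool was left out, and above 1.5 times 22 without odor pool 1 (55), 2 (38), 4 (40) or vehicle pool 2 (49), 3 (48) or 4 (37). The lower count was 8 to 16, and above 1.5 times 2 without any 1 of the 8 pools. The shares of all genes in these settings are not given here, so this rise is not a result about receptors.

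The 22 were counted by chromosome and not by receptor cluster. Chromosome 2, which holds 284 of the receptors, had 7 of the 22, chromosome 9 had 4 of 132 and chromosome 7 had 3 of 232. The median difference by chromosome, for those with at least 24 receptors, ran from 0.05 on chromosome 1 (28 receptors, Olfr16 among them) to 0.23 on chromosome 16 (36 receptors). Neither chromosomes nor clusters were tested.

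The rule for named receptors took those with the smallest unadjusted p and a group mean above background. After Olfr16 and Olfr1099 it named 8 with a positive difference, none of which passed. Olfr1151 had gate ratios of 2.11, 2.11, 2.62 and 2.59 with vehicle and 4.04, 3.06, 3.43 and 3.55 with odor, a difference of 1.16 ± 0.24 (SE). Olfr198 had 1.08, 0.85, 1.13 and 1.33 with vehicle and 1.97, 2.53, 1.83 and 2.56 with odor, a difference of 1.12 ± 0.22. Both were already on the titled GFP- side without odor, and in both the treatments did not overlap. Olfr1115 had -0.22, -0.13, 0.16 and 0.25 with vehicle and 0.63, 0.74, 1.49 and 1.61 with odor, so that a nearly even division became a higher level in the titled GFP- gate. The other named ones were Olfr738 (1.35), Olfr1049 (1.26), Olfr516 (1.20), Olfr1134 (1.08) and Olfr948 (0.83), each without overlap. For these 8 the lack of overlap follows in part from their choice by the smallest p. Higher without overlap were 2.02% of receptors and 1.89% of all genes. Olfr738 and Olfr516 were below background on the titled GFP+ side, so the size of their ratio is a lower bound there, and Olfr948 was above it in 2 of 4 group means.

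Among receptors with a negative difference, Olfr1279 had gate ratios of -1.45, -2.70, -1.56 and -2.46 with vehicle and -3.22, -3.29, -2.9 and -3.19 with odor, without overlap. Its titled GFP- means, 3.82 and 3.66, lay below background. Olfr393 was strongly on the titled GFP+ side in all pools, at -7.51, -6.99, -8.04 and -7.33 with vehicle and -9.05, -7.97, -8.66 and -8.45 with odor, where the treatments overlapped. The remaining 6 also overlapped: Olfr769 (-1.60), Olfr374 (-1.54), Olfr66 (-1.17), Olfr971 (-1.03), Olfr1372-ps1 (-1.0) and Olfr31 (-0.74). Olfr374 lay below background in its titled GFP- odor mean, and Olfr971 in 2 of its 4 group means. The limma adjusted p of each of these 8 was 0.823.

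**Figure D4:**
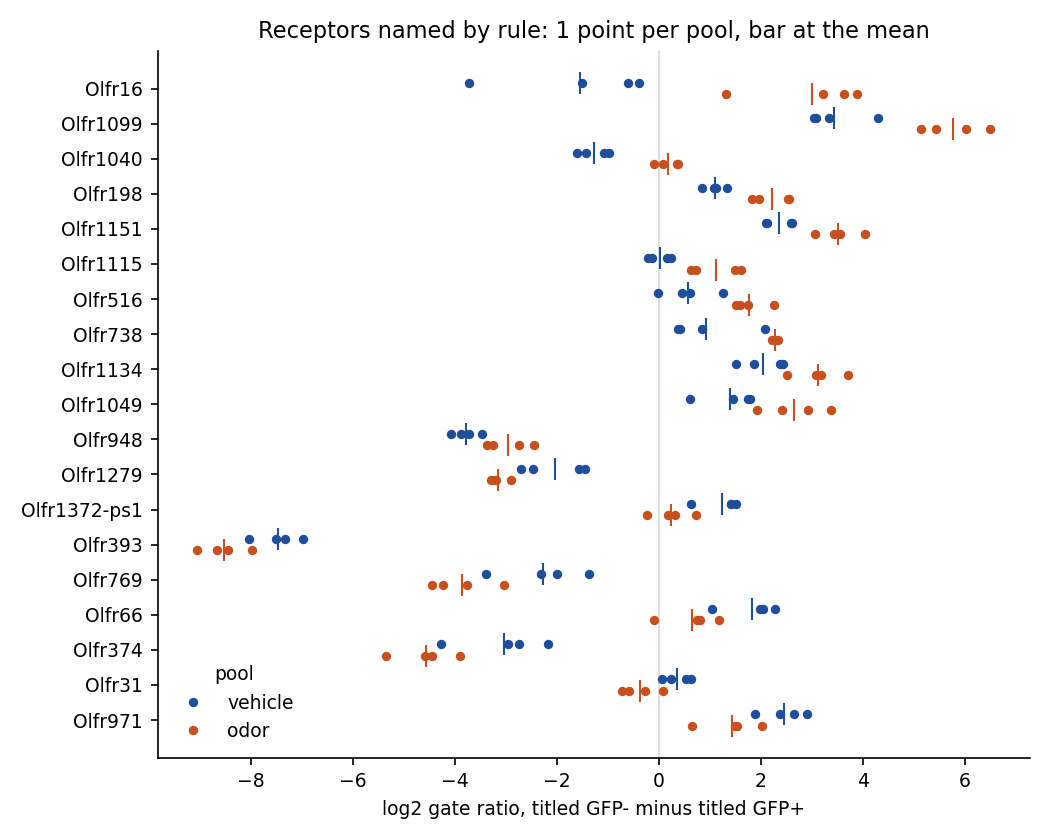
Log2 gate ratio (horizontal axis, titled GFP- minus titled GFP+) of 19 named receptors (vertical axis), with 1 point per pool and a bar at the mean of 4, blue for vehicle and orange for odor. The orange points of the upper 11 receptors lie to the right of their blue points; of the lower 8, the points of Olfr1279 alone are fully apart.

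Of 21 measured receptors known as model receptors or for described ligands, 16 had a positive difference (76.2%, against 64.2% of all receptors). The median was 0.18. It was 0.04 to 0.35 with 1 pool left out and 0.07 with pool differences centred on the receptor median. Olfr16 was the 1 without overlap (1.89% of all genes were higher without overlap). By pool, the list's median gate ratio was 0.91, 1.03, 0.75 and 1.04 with odor and 0.56, -0.06, 0.56 and 0.28 with vehicle, so that the medians did not overlap although 20 of its members did. Olfr43 (0.66) was higher and Olfr1440 (-0.59) lower at an unadjusted p under 0.05. Olfr17, also called P2 and used in axon tracing, differed by 0.03, and Olfr73, the mOR-EG receptor for eugenol, by 0.05. Olfr2, the I7 receptor for octanal, differed by -0.31.

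The gene lists are described by their counts and medians. Over all genes 53.1% of differences were positive, the median was 0.02, and 1.89% were higher and 1.60% lower without overlap. Centring on the receptor median lowers every difference by the same amount. It turned the medians of the low-activity (-0.01), mature neuron (-0.04), transduction (-0.06) and immature neuron (-0.10) lists negative. Quantile normalisation also turned that of the immature neuron list (-0.01). Of 11 genes whose RNA is described as following sensory neuron activity, S100a5 among them, 7 had a positive difference and the median was 0.13. It was 0.02 with pool differences centred on the receptor median, where 6 of 11 were positive, and 0.02 to 0.19 with 1 pool left out. Pcdh10, an adhesion protein, was the 1 without overlap (1.89% of all genes were higher without overlap), at 0.57 (mean gate ratio 1.08 with vehicle and 1.66 with odor; limma adjusted p = 0.823). Kirrel2, an adhesion molecule of active neurons, differed by -0.11, and Lrrc3b by -0.04. Of 6 genes of less active neurons 0 separated the treatments, with Kirrel3, their adhesion counterpart, at 0.27 and the calcium-binding protein gene Calb2 at 0.14. No member of either list had an adjusted p under 0.05.

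Immediate early genes, transcription factors and related genes that respond within minutes to stimulation, had negative differences in 20 of 25 (80.0%, against 46.9% of all genes), with a median of -0.32. Without vehicle pool 1 the median was -0.15, without odor pool 3 it was -0.17 and without vehicle pool 2 it was -0.50. Btg2, an antiproliferative gene, had gate ratios of -4.07, -4.64, -4.43 and -4.08 with vehicle and -5.36, -5.38, -5.61 and -5.03 with odor. Its difference was -1.04 ± 0.20 (SE; limma adjusted p = 0.774). Nr4a2 (-0.96) and Atf3 (-0.56) also did not overlap, and Egr1 (-0.83) had an unadjusted p under 0.05, so 3 of 25 were lower without overlap (1.60% of all genes) and 4 of 25 lower at that p (2.89% of all genes), with 0 in the other direction. The lowest group mean of Nr4a2, 4.67, lay below background. Fos differed by -0.21, Fosb by -0.72 and Arc by 0.01. By pool, the list's median gate ratio was -2.25, -1.93, -2.30 and -1.88 with odor and -1.49, -2.21, -1.14 and -1.57 with vehicle, which overlap. The immune list was on the same side: 12 of 19 were negative, with a median of -0.22 (-0.45 to -0.03 with 1 pool left out). Ptprc, the CD45 gene of all white blood cells, differed by -1.06, but its titled GFP- odor mean, 4.33, lay below background, so that this size is not exact. The mean level of the immune list was 10.26 to 11.49 in the titled GFP+ libraries with vehicle and 10.70 to 11.47 with odor, and 4.04 to 4.69 and 4.26 to 4.86 in the titled GFP- libraries. Those titled GFP- levels lay below background (4.97), so that the size of the list's median difference is not exact. The part of the immune list in the immediate early values was not tested.

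Genes that identify mature sensory neurons and their transduction cascade had differences near 0. Of 20 mature neuron genes, 16 had a positive difference, with a median of 0.07 and 0 without overlap. Omp differed by 0.13, Stoml3 by 0.08, Rtp1, which helps receptors reach the membrane, by 0.19 and Rtp2 by 0.04. Of 16 measured transduction genes 0 separated the treatments (median 0.05), with the G protein subunit Gnal at 0.00, Gnb1 at 0.01, Gng13 at 0.07 and the chaperone Ric8b at -0.02. Presynaptic genes had a median of 0.11 (12 of 14 positive), with Syt1 at 0.12 and Snap25 at 0.15. Receptor trafficking and choice genes had one of -0.02 (6 of 14 positive). These counts depend on the scaling. With pool differences centred on the receptor median, 5 of 20 mature neuron, 7 of 14 presynaptic and 3 of 14 trafficking genes were positive. In that setting 36.2% of all genes were positive and the presynaptic median was 0.005.

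In the unfolded protein response list, which holds stress genes used in receptor choice, 2 of 12 were higher without overlap (1.89% of all genes): the chaperone Hspa5 at 0.21 and the kinase Eif2ak3 at 0.39. Its median was -0.01, and Ddit3 differed by -0.36. Of 8 heat shock genes 0 separated the treatments, with 5 positive and a median of 0.24. Vehicle pool 3 stood apart from the other pools in the levels of Hspa1a and Hspa1b, inducible Hsp70 genes, in both gates. Hspa1a was 10.99 (titled GFP-) and 12.80 (titled GFP+) there, against 6.35 to 7.08 and 7.46 to 8.44 in the other vehicle pools. Hspa1b was 10.77 and 12.41, against 6.30 to 6.86 and 7.54 to 7.95. Their differences of the gate ratio were -0.10 and -0.18. Without vehicle pool 3 the median of the list was 0.13. Without that pool the difference was 4.88 for Olfr16 and 2.20 for Olfr1099.

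Markers of the other cells of the epithelium showed few separations. Of 16 immature neuron genes 8 were positive and 8 negative, with a median of 0.01. Dbn1 (-0.31) was the 1 lower without overlap (1.60% of all genes), and the growth cone gene Gap43 differed by 0.46. Of 14 sustentacular genes, those of the supporting cells, 7 were positive and 7 negative, with a median of 0.00. Ces1d (-0.46) was the 1 lower without overlap, and the cytochrome gene Cyp2g1 differed by 0.38. Of 14 microvillar, 10 progenitor, 8 guanylyl cyclase D neuron and 2 erythroid genes 0 separated the treatments, with medians of -0.01, -0.09, -0.05 and -0.26. Trpm5, the channel of microvillar cells, differed by 0.53 and Mki67, a proliferation gene, by -0.14, each with a lowest group mean below background (4.71 and 4.21). Gucy2d, the cyclase of that neuron class, was below background in all group means. Alas2, of haem synthesis, differed by -0.70. No member of any list passed over all genes.

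**Figure D5:**
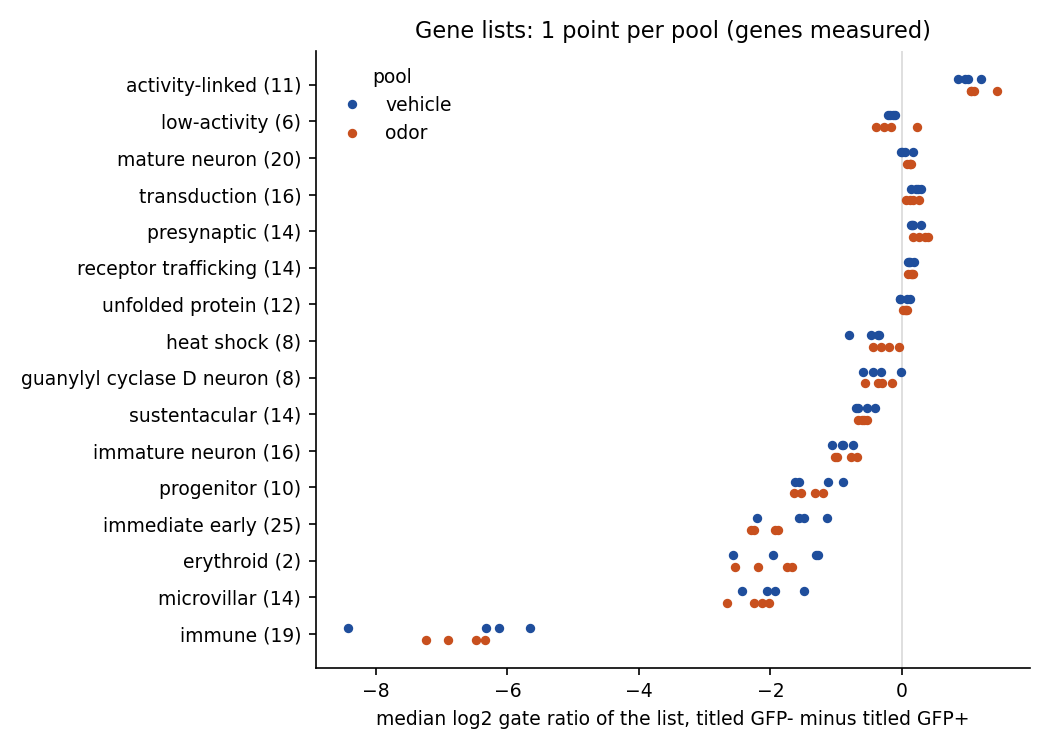
Median log2 gate ratio (horizontal axis, titled GFP- minus titled GFP+) of 16 gene lists (vertical axis, with the number of genes measured), with 1 point per pool, blue for vehicle and orange for odor. Vehicle and odor points overlap along each list, and the immune list lies farthest left in both, between -8.42 and -5.65.

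Outside the receptors the rule named 12 genes, none of which passed. Il1r2, a decoy receptor for interleukin 1, had the smallest p on the array. It was named for that p, so its p-values are not independent evidence, and its exact permutation p is the smallest possible. Its gate ratio was -1.86, -2.13, -1.97 and -1.85 with vehicle and -3.54, -3.15, -3.34 and -3.24 with odor, a difference of -1.37 ± 0.17 (SE; 95% interval -1.74 to -0.99; exact permutation p = 0.0286; limma adjusted p = 0.172). Both titled GFP- means, 4.02 and 3.95, lay below background, and the titled GFP+ mean was 5.97 with vehicle and 7.27 with odor. The other negative ones were Oat (-1.16), an ornithine aminotransferase, Btg2, the transcription factor Elk1 (-0.96), Leng8 (-0.91) and Slc66a2 (-0.86). All 6 were without overlap, which follows in part from their choice by the smallest p (1.60% of all genes were lower without overlap). The titled GFP- odor mean of Oat, 4.47, lay below background, so that the size of its difference is not exact.

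The 6 with a positive difference were Tsen15 (1.25), a subunit of the tRNA splicing endonuclease, Stk32a (1.07), a kinase gene, Dusp15 (0.90), a phosphatase gene, Snx18 (0.82), a sorting nexin, Ddah2 (0.71) and the channel gene Trpv2 (0.69). All 6 were without overlap, which again follows in part from their choice by the smallest p (1.89% of all genes were higher without overlap). Tsen15 had gate ratios of -0.17, -0.57, -0.83 and 0.03 with vehicle and 1.16, 0.95, 0.06 and 1.29 with odor, where the lowest odor pool was just above the highest vehicle pool. Snx18 had -0.32, -0.29, -0.75 and -0.51 with vehicle and 0.44, 0.21, 0.46 and 0.32 with odor. Dusp15 was above background in 1 of its 4 group means. In the other 5 at least 3 of the 4 were.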

How the data were processed

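Values are the deposited log2 expression values, 1 column per library, which the authors deposited after processing in Affymetrix Expression Console (source: the submitters' processing notes). The version, summarisation method and build were not given in the sources used here. Spike-in controls set the log base (bioB 8.60, bioC 10.44, bioD 11.64, cre 13.31). No further normalisation was made. Of 28846 probe sets, 94 spike-in or background and 6546 neg or pos controls and 2634 unnamed ones were left out. The remaining 19572 named 1 gene each, through GEO's platform annotation. The brightest probe set of a gene was kept (67 set aside), and all Entrez IDs (100%) matched the GRCm38.p6 table.

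The pool differences were fitted with limma 3.58.1 in R 4.3.3 (lmFit, eBayes, two-sided, Benjamini-Hochberg over all 19505 genes, threshold 0.05), which equals a fit of 16 libraries with the pool as a block. The code was tested on simulated data. That the gates of a pool come from the same mice is inferred from the titles and the number of mice.

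The members, gene lists and tests were chosen with earlier results of these data known. The naming rule took Olfr16, Olfr1099, Olfr1040, S100a5, Omp, Kirrel2 and Kirrel3. By smallest p among genes with a group mean above background, it took 10 positive and 8 negative receptors and 6 other genes each way, without Gm and Rik genes. It added 2 neighbours per side of the 3 receptors and up to 4 genes of each list. Its part on protein identity could not be applied and was replaced by the match over the first coding bases. Further genes were chosen after their values were seen.

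Odor and vehicle pools of the same number deviated together in the receptors (r = 0.295 to 0.527 over receptors) but not in other genes (-0.008 to 0.075), so the number was taken as paired for receptors only. This choice rests on these same data, and a number belongs to a pool and not to a class of genes. The main limma fit and the permutation test left the pools unpaired for all genes. What such a number marks is not said.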

Additional observations from a re-analysis of the deposited data

Results flagged for a closer look

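Olfr16, Snx18 and Dusp15 had a negative gate ratio in all 4 vehicle pools and a positive one in all 4 odor pools, with odor minus vehicle differences of 4.57, 0.82 and 0.90. This pattern was met by 48 of all genes (0.246%). Elk1 and Slc66a2 had the reverse pattern, with differences of -0.96 and -0.86, and its share of all genes is not given here. Dusp15 was above background in 1 of its 4 group means. The difference itself was tested for each of the 5 genes by limma, and none had an adjusted p under 0.05 over all genes.

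A single pool stood far from the others of its treatment in 2 of 94 sets of 4 pools tested, where chance alone marks about 1 in 20. The gate ratio of Olfr1372-ps1 was 0.63 in vehicle pool 3, against 1.42 to 1.52 in the other vehicle pools. That of Olfr1101 was 1.55 in odor pool 1, against 3.23 to 3.42 in the other odor pools.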

How the results depend on the processing

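In the main setting and all 16 alternatives, 0 genes passed over all genes, and the difference of Olfr16 stayed between 3.84 and 5.13 and that of Olfr1099 between 2.09 and 2.62. The smallest adjusted p of an alternative was 0.0532, with the replicate number as a block, where the fit gave 604 genes higher and 653 lower at an unadjusted p under 0.05. With dim genes left out it was 0.0539. The receptors' median difference was 0.06 to 0.18 with 1 pool left out, 0.10 after quantile normalisation and 0.02 with pool differences centred on the receptor median. That centring left 13 receptors higher and 9 lower without overlap, and 185 genes higher and 864 lower at an unadjusted p under 0.05. At that p, leaving out dim genes gave 464 and 328 of the 12131 genes kept. Leaving out 1 pool gave 28 to 55 receptors higher without overlap, for which the share of all genes is not given here. Of 725 values for 47 named genes, 8 turned in direction. Olfr1097 was -0.033 with receptor centring. With 1 pool left out, Olfr1097 ranged from -0.118 (without vehicle pool 2; -0.0789 without odor pool 3) to 0.309. Olfr1410 ranged from -0.243 to 0.0155 (without vehicle pool 2; 0.011 without odor pool 2), Olfr1098 from -0.394 to 0.136 (without odor pool 3), Olfr1101 from -0.105 (without vehicle pool 1) to 0.736 and Olfr1043 from -1.70 to 0.0385 (without vehicle pool 4). The cause was not tested. With 4 pools per treatment the exact test cannot go below 0.0286 (0.125 with pools paired by number, a test chosen after seeing the data), and ratios near background or the top of the scale are compressed.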

Other observations

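Over the odorant receptors, the gate ratios of each odor pool correlated best with those of the vehicle pool of the same number. The correlations were 0.943, 0.955, 0.95 and 0.935 over 1091 receptors, against at most 0.922, 0.940, 0.946 and 0.920 with the vehicle pools of other numbers. Over the other named genes this held for number 2 alone. The points share libraries and are not independent. For Olfr16 the odor minus vehicle difference within the same number was 2.82, 4.02, 4.49 and 6.94. For Olfr1099 it was 2.06, 2.68, 2.40 and 2.20, a narrower range than that of Olfr16.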
